A study of Rattus norvegicus with 16 samples.

Results

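The genes described here are the chemokines Cxcl1, Cxcl2, Cxcl3 and Cxcl6 and the receptors Cxcr1 and Cxcr2, the CXC axis that draws neutrophils to injured tissue. They were taken by gene symbol, 6 of the 17245 genes measured, and each had 1 row on the array. Affymetrix Rat Gene 1.1 ST arrays measured the RNA of cells adhering to titanium implants retrieved from the tibiae of 8 male Sprague Dawley rats (326 to 350 g). The AT-I surface carried nanoscale features, whereas AT-II was microrough without them, and in each rat a tibia with 2 AT-I implants faced one with 2 AT-II implants on the opposite side. The 4 groups were AT-I and AT-II retrieved at day 4, and both surfaces at day 2, with 4 arrays each and 4 rats per day. All rats had the same surgery under ketamine and xylazine with lidocaine and epinephrine, so no group was free of injury or implant. All also had ketoprofen, an anti-inflammatory analgesic, once daily for the first 48 hours, so its last dose was further back at day 4 than at day 2 and its part in a change over time cannot be told apart from that of time. The implants of a tibia gave 1 RNA sample, and in such bulk samples a change in the number of cells of a type and a change in RNA per cell cannot be told apart.

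CXC chemokines with a Glu-Leu-Arg motif ahead of their first cysteines attract neutrophils, which read them through the G protein-coupled receptors CXCR2 and, for some ligands, CXCR1. In rats Cxcl1, Cxcl2 and Cxcl3 encode the cytokine-induced neutrophil chemoattractants (CINC-1, CINC-3, also called MIP-2, and CINC-2), and Cxcl6 encodes a related chemokine that the RefSeq gene table also lists as Cxcl5. The chemokines are made within hours by macrophages, neutrophils and stromal cells after interleukin-1, TNF or Toll-like receptor signals act through NF-kB, and neutrophils are the first leukocytes to enter a bone wound.

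Because the known inducers act through NF-kB, the bases just upstream of the start of transcription are shown for the 3 chemokine genes found in the RefSeq promoter table (GRCr8). Among the members, 5 of 6 matched an entry there, all but Cxcl3. Each line gives the 130 bases before the start, 5′ to 3′, with every match to a form of the NF-kB binding motif (GGG, any 2 bases, then TTTCC) in capitals. The regions lie on the minus strand, at chr14:17479322-17479451 for Cxcl1, chr14:17467256-17467385 for Cxcl2 and chr14:17596418-17596547 for Cxcl6.
Cxcl1: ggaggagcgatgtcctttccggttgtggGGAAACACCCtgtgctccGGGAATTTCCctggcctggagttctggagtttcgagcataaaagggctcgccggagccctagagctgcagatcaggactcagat
Cxcl2: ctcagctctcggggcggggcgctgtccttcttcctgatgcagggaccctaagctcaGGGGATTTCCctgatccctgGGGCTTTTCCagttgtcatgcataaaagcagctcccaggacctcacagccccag
Cxcl6: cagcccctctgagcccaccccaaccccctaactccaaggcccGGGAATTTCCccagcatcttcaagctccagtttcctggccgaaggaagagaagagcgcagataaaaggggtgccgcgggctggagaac

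The motif was searched on both strands, together with ATAAAAG, a form of the TATA box. It was found 84 to 75 bases before the start of Cxcl1 and, on the opposite strand, at 102 to 93. It lay at 74 to 65 and at 54 to 45 bases in Cxcl2 and at 88 to 79 bases in Cxcl6. ATAAAAG followed downstream in all 3, at 47 to 41, 33 to 27 and 28 to 22 bases in that gene order, overlapping no NF-kB match. Of 33469 promoters, 1.30% held a match to the NF-kB motif and 5.17% an ATAAAAG match in the 250 bases before the start. The promoters of Cxcr1 and Cxcr2 held neither in that window. Both motifs were chosen after these sequences were read, and a match is only a run of letters. In the GRCr8 gene order the 4 chemokine genes lie in one cluster on chromosome 14, with Pf4 and Ppbp, the platelet relatives, between Cxcl3 and Cxcl6, and the receptor genes are neighbours on chromosome 9.

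Replicates 2 and 3 of AT-II at day 2 gave arrays closer to each other than any other of the 120 pairs (SD of their difference 0.109 over the most variable bright rows, against at least 0.294) and were averaged as 1 sample, so 15 samples entered each test and AT-II day 2 had n = 3. The next closest pair was AT-I day 4 replicate 2 with AT-II day 4 replicate 4, kept as separate samples. The interquartile range of log2 values over genes at day 4 ran from 2.60 to 3.41 on AT-I and 3.10 to 3.42 on AT-II, and at day 2 from 2.48 to 2.98 on AT-I and 3.05 to 3.41 on AT-II. The labels call the cells only tibial. The mean of 16 measured neutrophil markers lay between 9.85 and 10.83 in every sample, with lactoferrin (Ltf) the lowest of them, and that of 8 monocyte and macrophage markers between 9.66 and 10.59. The list mean of 8 osteoblast markers was 10.33 to 11.11 at day 4 and 7.15 to 8.77 at day 2. Precision is limited by how many arrays each group had.

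Day 4 was set against day 2 on AT-I to ask how the adherent cells changed with time on the nanoscale surface. All 6 genes had lower means at day 4. For Cxcl1, Cxcl2 and Cxcl3 every day 4 sample lay below every day 2 sample, a separation in that direction found in 4.01% of all genes. Only Cxcl2 passed limma's test with Benjamini-Hochberg adjustment over all genes, 1 of 6 members, where 11.5% of all genes were called, 2.66% lower and 8.84% higher. The median difference of the 6 genes was -1.19, against -0.05 over all genes tested.

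Cxcl2 encodes MIP-2, a product of activated macrophages. On the log2 scale it was at 7.64, 10.73, 8.83 and 6.59 in AT-I day 4 replicates 1 to 4, against 13.06, 10.90, 11.78 and 11.63 in AT-I day 2 replicates 1 to 4. The groups did not overlap, although day 4 replicate 2 came close to day 2 replicate 2. It averaged 8.45 ± 1.78 at day 4 and 11.84 ± 0.899 at day 2 (SD, n = 4 each), a difference of -3.39 ± 0.99 (SE; adjusted p = 0.037), to 0.0951 of the day 2 level, with a 95% confidence interval of -5.50 to -1.29. This call ended without any 1 of AT-I day 2 replicates 1, 3 or 4 or AT-I day 4 replicates 1 or 4 (differences of -3.47 to -2.77, adjusted p from 0.0646 to 0.129).

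Cxcl1, the rat counterpart of mouse KC, was at 6.73, 8.57, 7.46 and 6.56 in AT-I day 4 replicates 1 to 4, against 11.53, 8.67, 8.92 and 9.17 in AT-I day 2 replicates 1 to 4. Day 2 replicate 1 stood far above the other day 2 samples, and the groups were only just apart. The means were 7.33 ± 0.912 at day 4 and 9.57 ± 1.32 at day 2 (SD, n = 4 each). The difference was -2.24 ± 0.75 (SE; 95% interval -3.84 to -0.64), which did not pass (adjusted p = 0.0656). It was -1.59 without AT-I day 2 replicate 1.

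Cxcl3, which encodes CINC-2, was at 5.48, 6.41, 5.95 and 4.65 in AT-I day 4 replicates 1 to 4, against 8.50, 6.91, 7.28 and 7.60 in AT-I day 2 replicates 1 to 4. As with Cxcl1 and Cxcl2, day 2 replicate 1 was the highest sample and day 4 replicate 4 the lowest. Cxcl3 averaged 5.62 ± 0.752 at day 4 and 7.57 ± 0.678 at day 2 (SD, n = 4 each), a difference of -1.95 ± 0.62 (SE; 95% interval -3.27 to -0.64). It missed the threshold narrowly (adjusted p = 0.0524) and passed with all 16 arrays counted separately (adjusted p = 0.0413), with each array centred on its median (-2.11, adjusted p = 0.0407) and with quantile normalization repeated (-2.19, adjusted p = 0.0254). When 1 sample was left out the difference ran from -2.22 to -1.63 (adjusted p from 0.0291 to 0.167). Cxcl3 passed in 5 of those fits and not in the other 10.

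Cxcl6 was nearly level on this surface. It was at 5.66, 6.04, 5.87 and 5.45 in AT-I day 4 replicates 1 to 4, against 5.80, 5.90, 5.62 and 5.93 in AT-I day 2 replicates 1 to 4, and the ranges overlapped. The difference was -0.06 ± 0.16 (SE; 95% interval -0.40 to 0.29; adjusted p = 0.841), and it turned to 0.05 with quantile normalization repeated. Averaged over all arrays, Cxcl6 was at 5.72, percentile 34.8 of the gene means. Cxcl3 was at percentile 44.6 and Cxcr1 at 47.5, against 74.5 for Cxcl1, 94.0 for Cxcr2 and 94.5 for Cxcl2. Whether the values of Cxcl6, Cxcl3 and Cxcr1 lay above the background of the arrays was not tested.

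The receptors had smaller differences than the 3 CINC genes. Cxcr2, the main chemokine receptor of rodent neutrophils, was at 9.96, 10.26, 9.44 and 9.31 in AT-I day 4 replicates 1 to 4, against 11.12, 10.26, 9.34 and 9.99 in AT-I day 2 replicates 1 to 4. Its range at day 4 lay almost within that at day 2. The difference was -0.43 ± 0.31 (SE; 95% interval -1.10 to 0.24; adjusted p = 0.376), and -0.12 without AT-I day 2 replicate 1. The 16 neutrophil markers had differences from -1.03 to 0.47, with a median of -0.37, against -0.05 over all genes. Of these markers 0 passed the threshold, where 11.5% of all genes were called. The part of neutrophil number in the Cxcr2 value was not tested.

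Cxcr1, whose human counterpart binds interleukin-8 and CXCL6, was at 6.43, 6.42, 7.48 and 6.41 in AT-I day 4 replicates 1 to 4, against 7.16, 6.32, 7.00 and 7.37 in AT-I day 2 replicates 1 to 4. A single day 4 sample, replicate 3, lay above every day 2 sample and the others were close to the lowest day 2 value. The difference was -0.28 ± 0.28 (SE; 95% interval -0.87 to 0.31; adjusted p = 0.523), and -0.54 without day 4 replicate 3 (adjusted p = 0.13).

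**Figure D1:**
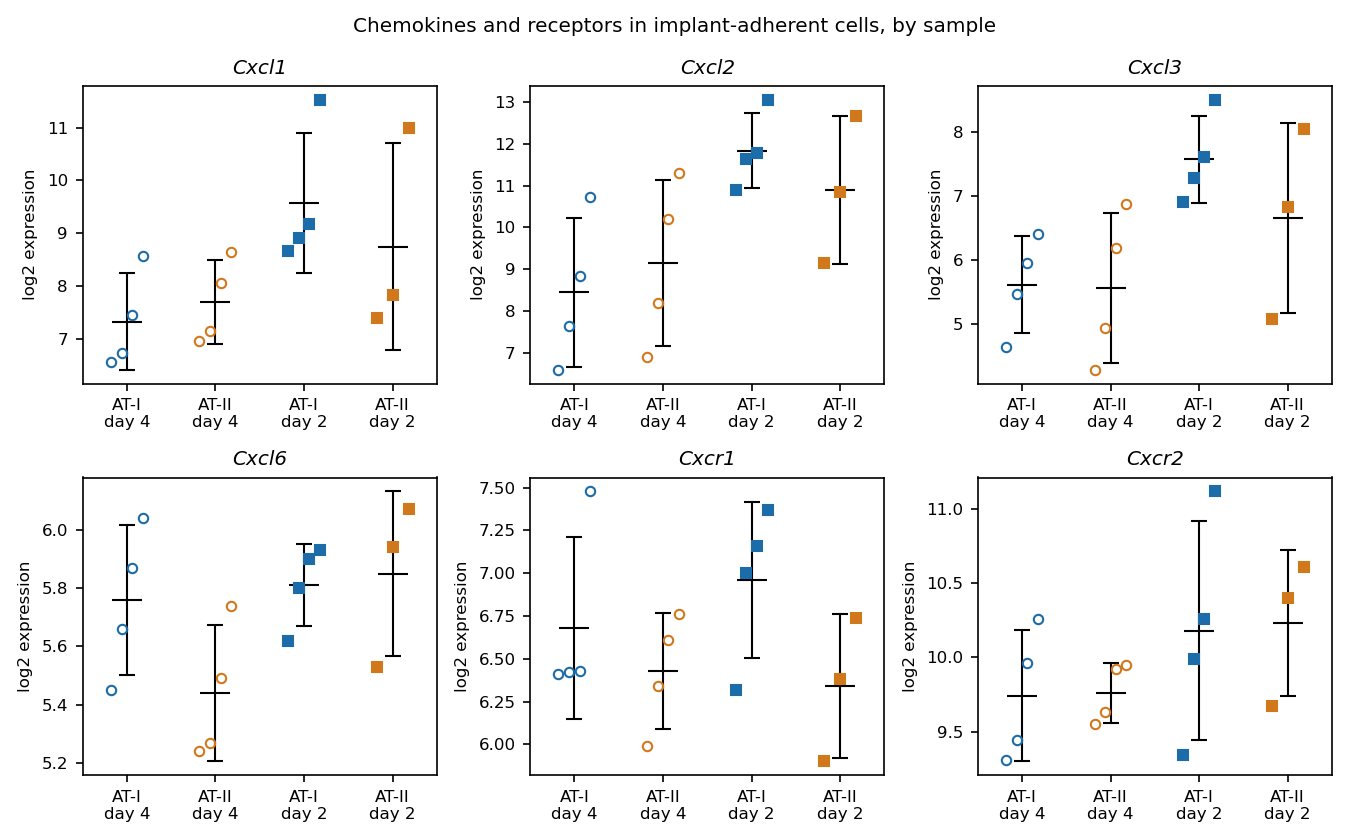
Log2 expression of the 4 chemokines and 2 receptors (y axis, its own scale in each panel) by group (x axis), the surfaces AT-I and AT-II at day 4 and then at day 2. Points are samples, drawn in order of value, and bars give the mean and SD (n = 4, and 3 for AT-II day 2). On AT-I the day 4 points of Cxcl1, Cxcl2 and Cxcl3 lie below all day 2 points.

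On AT-II, the microrough surface, the same comparison of day 4 with day 2 gave lower means for 5 of the 6 genes, and 0 of 6 passed, where 3.33% of all genes were called, 0.203% lower and 3.13% higher. The median difference of the members was -0.75, against -0.05 over all genes, and 0 of 6 members separated the groups, against 7.63% of genes wholly lower and 8.74% wholly higher at day 4.

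Cxcl2 was at 6.89, 8.19, 10.20 and 11.31 in AT-II day 4 replicates 1 to 4, against 12.67 in AT-II day 2 replicate 1, 10.85 in the averaged replicates 2 and 3, and 9.14 in replicate 4. The highest day 4 sample exceeded 2 of the 3 day 2 samples. The means were 9.15 ± 1.98 at day 4 (SD, n = 4) and 10.89 ± 1.77 at day 2 (SD, n = 3), a difference of -1.74 ± 1.07 (SE; 95% interval -4.01 to 0.53; adjusted p = 0.557). Without AT-II day 2 replicate 1 it was -0.85.

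Cxcl1 was at 6.96, 7.15, 8.06 and 8.65 in AT-II day 4 replicates 1 to 4, against 10.99, 7.84 and 7.41 in AT-II day 2 replicate 1, the averaged pair and replicate 4. The day 2 mean rested on replicate 1, the other day 2 samples lying inside the day 4 range. The difference of -1.04 ± 0.81 (SE; adjusted p = 0.672) was 0.08 without that sample.

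Cxcl3 was at 4.29, 4.94, 6.19 and 6.87 in AT-II day 4 replicates 1 to 4, against 8.04, 6.82 and 5.09 in AT-II day 2 replicate 1, the averaged pair and replicate 4. The sample order within each group was the same as for Cxcl2. The difference was -1.08 ± 0.67 (SE; 95% interval -2.50 to 0.34; adjusted p = 0.562). Leaving out AT-II day 2 replicate 1 brought it to -0.39.

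Cxcl6 was at 5.49, 5.27, 5.24 and 5.74 in AT-II day 4 replicates 1 to 4, against 6.07, 5.94 and 5.53 in AT-II day 2 replicate 1, the averaged pair and replicate 4. Overlap came from day 4 replicate 4 and day 2 replicate 4 alone. The difference was -0.41 ± 0.17 (SE; 95% interval -0.78 to -0.04), with an unadjusted p of 0.0314 and an adjusted p of 0.308. For the receptors the differences were -0.47 ± 0.34 for Cxcr2 (SE; adjusted p = 0.647) and 0.09 ± 0.30 for Cxcr1 (SE; adjusted p = 0.953). Cxcr2 was at 9.92, 9.55, 9.63 and 9.95 in AT-II day 4 replicates 1 to 4, against 10.61, 10.40 and 9.67 at day 2 in the order above. The neutrophil marker list ran from -1.09 to 0.49 with a median of -0.35, and 0 of 16 passed, where 3.33% of all genes were called.

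**Figure D2:**
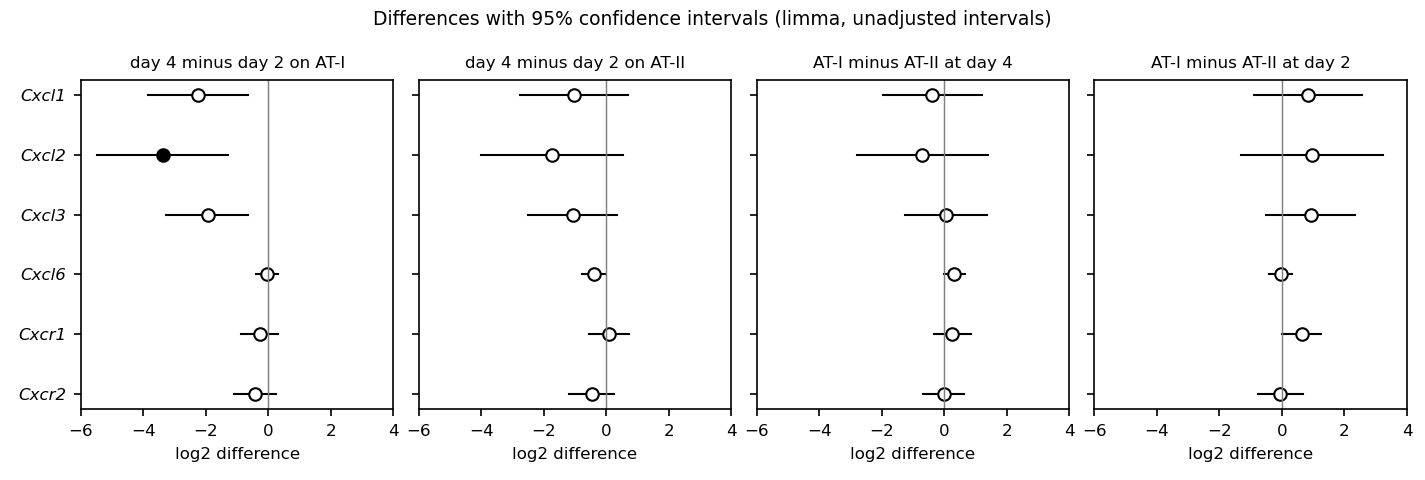
Log2 difference of each gene (x axis) in the 4 comparisons, with day 4 minus day 2 on each surface and AT-I minus AT-II on each day. Points are limma estimates, lines are unadjusted 95% confidence intervals, and the single filled point, Cxcl2 on AT-I, is the only one past an adjusted p of 0.05.

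The time courses on the 2 surfaces were compared directly. The time difference on AT-I minus that on AT-II was -1.65 ± 1.45 for Cxcl2 (SE; 95% interval -4.75 to 1.44; adjusted p = 0.924), -1.20 ± 1.11 for Cxcl1 (adjusted p = 0.924) and -0.87 ± 0.91 for Cxcl3 (adjusted p = 0.928). Leaving out 1 sample at a time moved these values between -2.55 and -0.78 for Cxcl2, -2.32 and -0.53 for Cxcl1 and -1.57 and -0.09 for Cxcl3, the smallest sizes coming without AT-II day 2 replicate 4 and the largest without AT-II day 2 replicate 1. None of the 6 genes passed, nor did any gene on the array (percent called 0.00; 707 genes at an unadjusted p under 0.05). The call of Cxcl2 on AT-I alone therefore does not show a difference between the surfaces. The 95% intervals were wide and leave differences in either direction possible. They reached further down (-4.75 for Cxcl2, -3.56 for Cxcl1 and -2.81 for Cxcl3) than up (1.44, 1.15 and 1.06 in that order).

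Setting AT-I against AT-II asked whether expression differed with the nanoscale features. At day 2 Cxcl1, Cxcl2, Cxcl3 and Cxcr1 had higher means on AT-I and 0 of 6 genes passed, with 0.00% of all genes called and 4701 at an unadjusted p under 0.05. All 6 genes overlapped between the surfaces, whereas 8.83% of genes were wholly higher and 11.3% wholly lower on AT-I. For Cxcl1, Cxcl2 and Cxcl3 the overlap came from AT-II day 2 replicate 1 alone. The averaged pair and replicate 4 of AT-II lay below every AT-I sample. They were at 7.84 and 7.41 against 8.67 or more for Cxcl1, 10.85 and 9.14 against 10.90 or more for Cxcl2, and 6.82 and 5.09 against 6.91 or more for Cxcl3. The median difference of the 6 genes was 0.73, against -0.09 over all genes.

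For Cxcl2 the day 2 means were 11.84 ± 0.899 on AT-I (SD, n = 4) and 10.89 ± 1.77 on AT-II (SD, n = 3), a difference of 0.96 ± 1.07 (SE; 95% interval -1.31 to 3.23; adjusted p = 0.533). For Cxcl1 the difference was 0.83 ± 0.81 (95% interval -0.90 to 2.56; adjusted p = 0.477) and for Cxcl3 0.92 ± 0.67 (95% interval -0.50 to 2.34; adjusted p = 0.343). AT-II day 2 replicate 4 was the lowest day 2 sample of Cxcl1, Cxcl2 and Cxcl3, and leaving it out gave differences of 0.16 for Cxcl1, 0.08 for Cxcl2 and 0.14 for Cxcl3. Leaving out replicate 1 of AT-II instead gave 1.95 for Cxcl1, 1.85 for Cxcl2 and 1.62 for Cxcl3, and leaving out replicate 1 of AT-I gave 0.17, 0.55 and 0.62 in the same order.

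Cxcr1 had the smallest p of the members at day 2, with a mean of 6.96 ± 0.457 on AT-I (SD, n = 4) and 6.34 ± 0.419 on AT-II (SD, n = 3). The difference of 0.63 ± 0.30 (SE; 95% interval -0.01 to 1.26) did not pass (adjusted p = 0.189). Cxcl6 differed by -0.04 ± 0.17 (95% interval -0.40 to 0.33) and Cxcr2 by -0.05 ± 0.34 (95% interval -0.77 to 0.67), and with each array centred on its median, which moved the median of all genes from -0.09 to 0.05, these were 0.10 and 0.08.

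At day 4, of the 6 genes 0 passed between the surfaces (0.00% of all genes, 687 at an unadjusted p under 0.05), all 6 overlapped, where 0.789% of genes were wholly higher and 1.41% wholly lower on AT-I, and the median difference was 0.02, against -0.03 over all genes. Cxcl2 averaged 8.45 ± 1.78 on AT-I and 9.15 ± 1.98 on AT-II (SD, n = 4 each), a difference of -0.70 ± 0.99 (SE; 95% interval -2.80 to 1.40; adjusted p = 0.938) that was 0.02 without AT-II day 4 replicate 4. Cxcl1 differed by -0.38 ± 0.75 (adjusted p = 0.953) and Cxcl3 by 0.05 ± 0.62 (adjusted p = 0.996). Cxcl6 differed by 0.32 ± 0.16 (95% interval -0.02 to 0.66; adjusted p = 0.913), Cxcr1 by 0.26 ± 0.28 and Cxcr2 by -0.02 ± 0.31. Without AT-I day 4 replicate 3 the Cxcr1 difference was -0.01.

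For every gene but Cxcr1 both day 2 means lay above both day 4 means. Among the day 2 means AT-I was the higher for Cxcl1, Cxcl2 and Cxcl3 and AT-II for Cxcl6 and Cxcr2, and among the day 4 means AT-I was the higher for Cxcl3 and Cxcl6 and AT-II for Cxcl1, Cxcl2 and Cxcr2. Cxcr1 was higher on AT-I than on AT-II at either time, with its highest mean on AT-I at day 2 and its lowest on AT-II at day 2. In the order of means, neighbouring groups differed by less than the larger of their SDs, except for the day 4 means of Cxcl6 on AT-I and AT-II, 5.76 ± 0.258 and 5.44 ± 0.235 (SD, n = 4 each).

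The 3 CINC genes varied more than nearly all other genes. Their SDs over the 16 arrays were 1.98 for Cxcl2, 1.41 for Cxcl1 and 1.23 for Cxcl3, at percentiles 99.97, 99.81 and 99.65 of all genes, while Cxcl6, with an SD of 0.266, was at percentile 48.1. They also varied together. Over the 15 samples r was 0.96 between Cxcl2 and Cxcl3, 0.92 between Cxcl1 and Cxcl3 and 0.91 between Cxcl1 and Cxcl2, and for deviations from the group means it was 0.95, 0.87 and 0.84 in the same order. These are descriptions over samples that share rats and arrays. The 3 genes are close paralogs, and whether the probes of one also bind transcripts of another was not tested. Cxcl6 followed Cxcl2 less closely (r = 0.58, and 0.64 for deviations), and Cxcr2 had r = 0.73 with Cxcl1 and -0.08 with Cxcr1.

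Certain samples set the range. AT-I day 2 replicate 1 and AT-II day 2 replicate 1 held the highest values of Cxcl1, Cxcl2, Cxcl3 and Cxcr2 among all 15 samples. At day 4 the highest Cxcl1 and Cxcl2 values were in AT-II day 4 replicate 4 (8.65 and 11.31) and AT-I day 4 replicate 2 (8.57 and 10.73), the arrays that formed the second closest pair. Without both day 2 samples numbered 1, a setting chosen after the data were seen, the change on AT-I was -1.59 for Cxcl1 (adjusted p = 0.046), -2.99 for Cxcl2 (adjusted p = 0.0853) and -1.65 for Cxcl3 (adjusted p = 0.0992), and on AT-II it was 0.08, -0.85 and -0.39, none past the threshold.

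**Figure D3:**
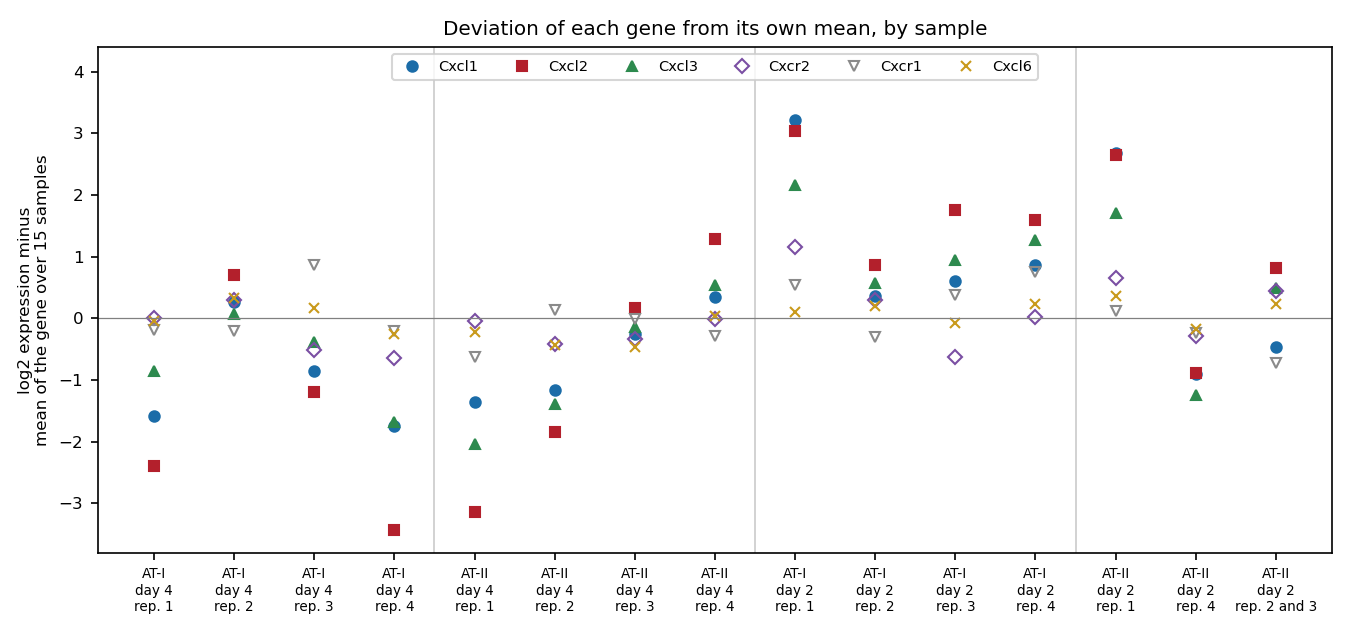
Log2 expression of each gene minus its own mean over the 15 samples (y axis), by sample (x axis, AT-I and AT-II at day 4, then both at day 2). Filled symbols are Cxcl1, Cxcl2 and Cxcl3, which move together and are highest in replicate 1 of both day 2 groups, and the other genes stay closer to 0.

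The genes most like each member over the 15 samples were named by the highest Pearson r among all genes but the 6 members. That choice favours high values. Cxcl1 was followed most closely by Ptgs2, the inducible cyclooxygenase (r = 0.973), Junb, an AP-1 subunit (r = 0.973), and Ccl3, a monocyte-attracting chemokine (r = 0.967). Ccl3 was also the nearest gene outside the members to Cxcl2 (r = 0.971) and Cxcl3 (r = 0.937). Cxcl3 was closer still to the member Cxcl2 (r = 0.96). Acod1, the itaconate-making enzyme of activated macrophages, was next for Cxcl2 among the other genes (r = 0.902), with Olah, a thioesterase (r = 0.902). For Cxcl3 Rab33a (r = 0.904) and Fbxo43 (r = 0.902) followed. Cxcr2 was nearest to Tarm1, a receptor of myeloid cells (r = 0.954), Flot1, a membrane raft protein (r = 0.953), and Pim1, a kinase (r = 0.949). For Cxcl6 they were Tmem40 (r = 0.894), Slc24a5 (r = 0.873) and C2h4orf46 (r = 0.869). For Cxcr1 they were Adam3a (r = 0.952), a gene of sperm, Or13p10, an olfactory receptor (r = 0.938), and Mrgpre, a receptor of sensory neurons (r = 0.925).

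Cxcr1 was the member that followed the spread of values on the arrays. Its 4 highest values, 7.48, 7.37, 7.16 and 7.00, were in the 4 samples with the narrowest interquartile ranges, 2.60, 2.68, 2.53 and 2.48, and its lowest, 5.90, was in the AT-II day 2 averaged pair at 3.41. Over 15 samples r was -0.85 (permutation p = 0.00013, adjusted p = 0.00078 over 6 genes) and Spearman's rho -0.77 (permutation p = 0.00107, adjusted p = 0.00642), with r = -0.85 without the 2 samples farthest from the median spread and -0.82 for deviations within groups. These permutations shuffled samples across groups and ignored shared rats, so their p-values can be too small. For deviations within groups no p was computed. Cxcr2 had r = 0.01 (permutation p = 0.972) and Cxcl2 r = -0.34 (permutation p = 0.215, adjusted p = 0.322). For Cxcl3 r was -0.47 (permutation p = 0.0813, adjusted p = 0.244), for Cxcl1 -0.40 (permutation p = 0.137, adjusted p = 0.273) and for Cxcl6 -0.11. The share of all genes that followed the spread as closely as Cxcr1 was not computed. The day 2 samples on AT-I had narrower ranges than those on AT-II, so the higher Cxcr1 mean on AT-I at day 2 and the spread of the arrays cannot be told apart.

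**Figure D4:**
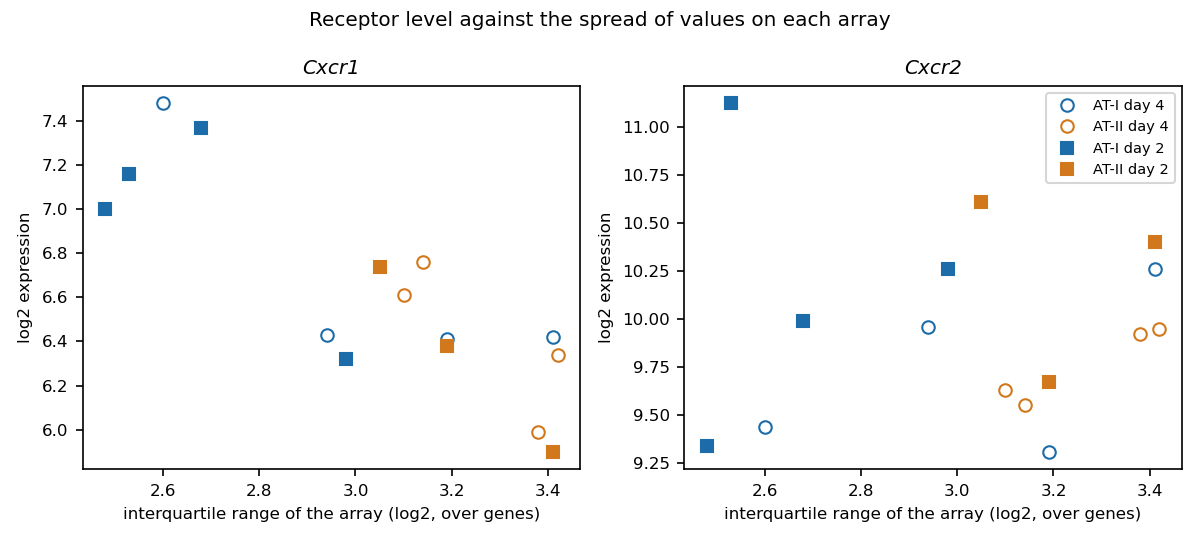
Log2 expression of Cxcr1 (left) and Cxcr2 (right) against the interquartile range of log2 values over all genes in the same sample (x axis), with 1 point per sample for the 15 samples. Cxcr1 falls as the range widens, from 7.48 at a range of 2.60 to 5.90 at 3.41, and Cxcr2 shows no such trend (r = 0.01).

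Other genes of the pathway were examined in 7 lists. Of 18 inducing cytokines and receptors, 2 fell and 0 rose at day 4 on AT-I, with a median of -0.38, where 11.5% of all genes were called in either direction and 2.66% were lower. Myd88, the adaptor of interleukin-1 and Toll-like receptors, fell by 0.56 ± 0.12 (SE; adjusted p = 0.0081), and Tlr2, a receptor of bacterial lipopeptides, fell by 0.89 ± 0.23 (adjusted p = 0.0214). The Tlr2 call ended when AT-I day 4 replicate 1 was left out (adjusted p = 0.0623), and both calls ended in a fit of the AT-I samples alone (adjusted p = 0.0548 for Myd88 and 0.0953 for Tlr2). The cytokines themselves had larger but more variable differences. Il1b, at 8.65, 10.29, 7.78 and 8.17 in AT-I day 4 replicates 1 to 4, against 13.03, 9.90, 10.83 and 10.15 in AT-I day 2 replicates 1 to 4, differed by -2.25 ± 0.84 (adjusted p = 0.0949), and Il1a, Il6 and Tnf by -2.17, -1.96 and -1.29, none past the threshold. On AT-II 0 of 18 passed, where 3.33% of all genes were called, with a median of -0.43. Every day 4 sample there lay below every day 2 sample for Myd88 (9.08 to 9.36 against 9.58 to 9.71) and Tlr2 (7.03 to 7.23 against 7.66 to 7.85). That separation was found in 7.63% of all genes.

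Of 12 measured NF-kB factors, inhibitors and decay factors, 0 passed on either surface, where 11.5% of all genes were called on AT-I and 3.33% on AT-II. The list medians were -0.54 on AT-I and -0.31 on AT-II, against -0.05 over all genes on either surface. Nfkbia, the NF-kB inhibitor that NF-kB itself induces, differed by -1.20 ± 0.50 on AT-I (adjusted p = 0.134). It was at 12.66 and 12.20 in the day 2 samples numbered 1 and at 10.71 or below in the other 13. Among 14 genes of receptor signalling and desensitisation 0 passed, against the same shares of all genes, with medians of -0.15 on AT-I and -0.23 on AT-II. Vav1, a guanine nucleotide exchange factor of leukocytes, had the smallest p on AT-I (-0.34 ± 0.12, adjusted p = 0.0757).

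Of 10 other chemoattractant and growth factor receptors, ligands and decoys, 2 fell on AT-I, where 2.66% of all genes were called lower. Csf3r, the receptor of the neutrophil growth factor G-CSF, fell by 0.92 ± 0.21 (SE; adjusted p = 0.00907), at 9.60, 9.95, 9.44 and 9.35 in AT-I day 4 replicates 1 to 4, against 11.19, 10.46, 10.06 and 10.30 in AT-I day 2 replicates 1 to 4, with no overlap. Csf2rb, the common beta chain of the GM-CSF receptor, fell by 1.06 ± 0.25 (adjusted p = 0.0125), and had an adjusted p of 0.0502 in the fit of the AT-I samples alone. On AT-II neither gene passed, yet every day 4 sample lay below every day 2 sample, as in 7.63% of all genes. Csf3r was at 9.53 to 9.83 there against 10.23 to 10.70, and Csf2rb at 8.56 to 9.01 against 9.15 to 9.86. Ackr3, a scavenging receptor of Cxcl12, rose on AT-II by 1.08 ± 0.27 (adjusted p = 0.0405), a call that ended without any 1 of AT-II day 2 replicates 1 or 4, the averaged pair, or AT-II day 4 replicates 1, 3 or 4 (adjusted p from 0.0631 to 0.178). It also ended with each array centred on its median (0.97, adjusted p = 0.0821) and with quantile normalization repeated (0.95, adjusted p = 0.105).

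Of 11 neutrophil adhesion genes 1 rose and 0 fell on each surface, where 8.84% of all genes were called higher on AT-I and 3.13% on AT-II. It was Jam3, a junctional adhesion molecule also made outside leukocytes, by 1.09 ± 0.16 on AT-I (SE; adjusted p = 0.000388) and 0.77 ± 0.17 on AT-II (adjusted p = 0.0197). The AT-II call ended without AT-II day 2 replicate 1, the averaged pair, or AT-II day 4 replicates 1 or 3 (adjusted p from 0.0633 to 0.112), and with median centring (0.66, adjusted p = 0.0814) or quantile normalization repeated (0.66, adjusted p = 0.13). Among 11 ELR-negative CXC chemokines and their receptors 1 rose on AT-I, a share near the 8.84% of all genes called higher there. It was Cxcl13, which attracts B cells (1.08 ± 0.20, adjusted p = 0.00258). On AT-II 0 passed, where 3.33% of all genes were called, and Cxcl13 differed by 0.74 ± 0.22 (adjusted p = 0.0935). Cxcr4, the marrow retention receptor, differed by -0.43 ± 0.14 on AT-I (adjusted p = 0.0633) and -0.46 ± 0.15 on AT-II (adjusted p = 0.153). The cluster neighbours Ppbp and Pf4, platelet chemokines, differed by 0.04 ± 0.38 and -0.38 ± 0.22 on AT-I and did not pass. Between the surfaces 0 genes of any of these lists passed on either day, where 0.00% of all genes were called.

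**Figure D5:**
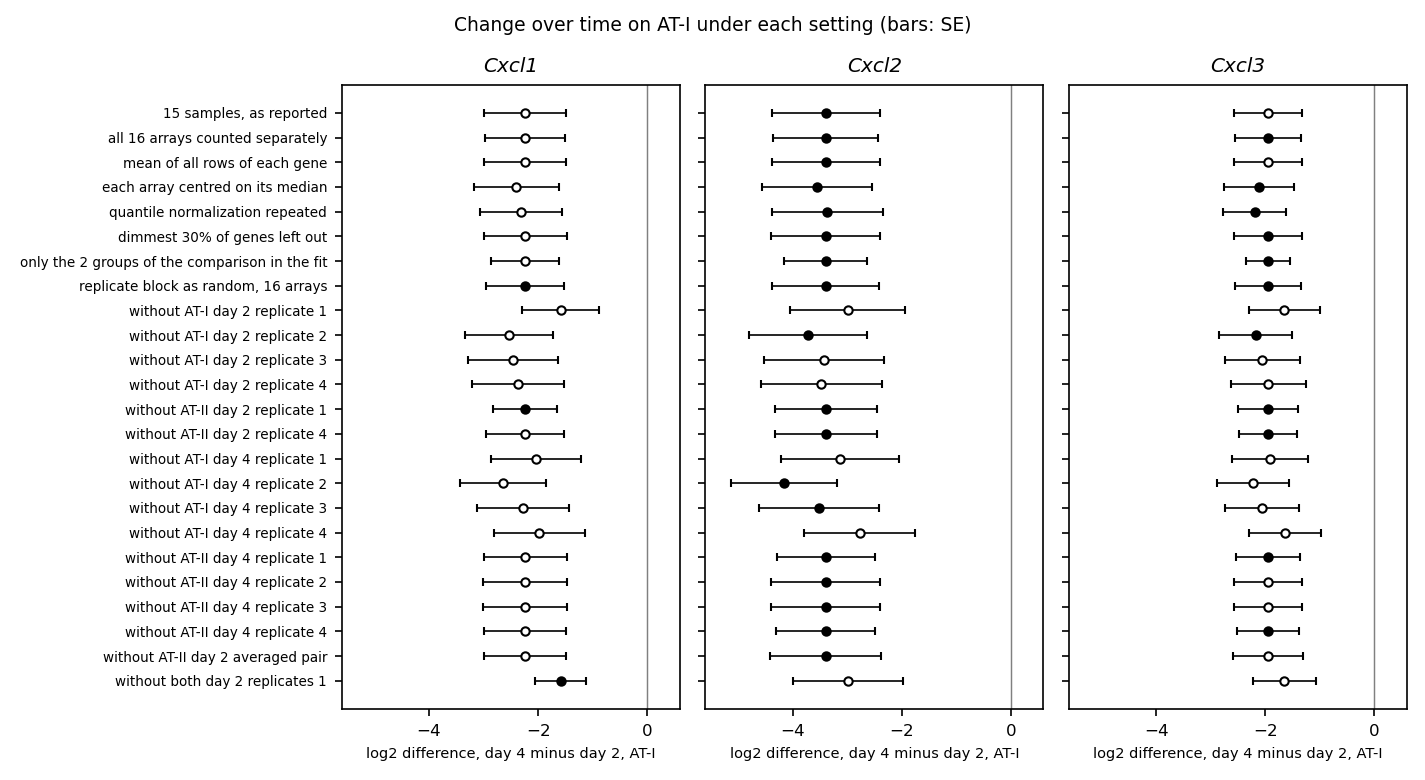
Log2 difference between day 4 and day 2 on AT-I for Cxcl1, Cxcl2 and Cxcl3 (x axis) under each processing setting (y axis). Points are limma estimates with SE bars, filled where the adjusted p was under 0.05. All points lie below 0, Cxcl2 between -4.16 and -2.77, and which of the 3 genes pass changes between settings.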

How the data were processed

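RNA from implant-adherent cells was hybridised to 16 arrays, per the labels' protocols. The authors deposited log2 expression values. The submitters' processing notes name RMA and Affymetrix Expression Console without versions. That the logarithm has base 2 follows from RMA and is not stated. No genome build is named. Rows were named by the platform annotation. Of 29214 rows, 18644 named 1 gene, while 962 named several and 9608 none and were not used. The brightest row stood for each gene. The members and lists were chosen with earlier results of these data known, as was the averaging of 1 pair of arrays.

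All 17245 genes were tested with limma 3.58.1 in R 4.3.3 (group means, no covariate, two-sided), with Benjamini-Hochberg adjusted p under 0.05. Intervals use 11 residual and 4.44 prior degrees of freedom. In data simulated with 200 of the 17245 genes shifted by 1 log2 unit, the test found 80.5% of those for day 4 minus day 2 on AT-I, 70.5% for that on AT-II, 79% for AT-I minus AT-II at day 4 and 74% at day 2. Of the calls 4.73%, 2.08%, 6.51% and 7.5% were false, in the same order. The shifted genes were drawn at random, with independent noise at each gene's own SD. These rates therefore do not carry over to Cxcl1, Cxcl2 and Cxcl3, whose SDs were at percentiles 99.81, 99.97 and 99.65 of all genes. Named genes were the members, up to 3 genes per list and comparison with the smallest p, and 3 per member by correlation. Those 3 were the genes outside the members most correlated with it. Other cytokines and markers were named after their values were seen. Results were recomputed under 24 alternatives, 1 of them added after seeing the data. Labels tie no replicate number to a rat, so p-values ignore pairing between surfaces. Promoter sequences are RefSeq's (GRCr8). Python 3.11.15 with numpy 2.4.6, scipy 1.17.1 and pandas 2.3.3 served for correlations.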

Additional observations from a re-analysis of the deposited data

Results flagged for a closer look

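In 159 groups of 4 samples, 12 had 1 sample farther from the rest than Dixon's 95% limit, where chance gives about 1 in 20. These were 53 genes (the 6 members, 31 genes of the pathway and marker lists and the 16 genes most like the members) in the 3 groups of that size. Many of these genes vary together and some were named after their values were seen. The 1 in 20 is therefore only a guide. Among the members the flagged value was Cxcr1 in AT-I day 4 replicate 3, at 7.48 against 6.41 to 6.43 in the others. Adam3a was at 5.13 in the same sample (others 4.54 to 4.56). That gene was picked for its correlation with Cxcr1 over these same samples, so its flag is not separate evidence. In AT-I day 2 replicate 1, which also held the highest Cxcl1, Cxcl2 and Cxcl3, the flagged values were Il1a at 12.17 (others 6.66 to 7.28), Tnf at 9.74 (6.84 to 7.01), Icam1 at 10.30 (8.23 to 8.45) and Nfkbiz at 11.18 (7.88 to 8.35). In AT-I day 4 replicate 2 it was Myd88 at 9.38 (8.89 to 8.94) and Nfkbia at 10.12 (9.60 to 9.67). In AT-I day 4 replicate 4 it was Il6 at 4.62 (5.31 to 5.35) and S100a8 at 11.37 (11.81 to 11.85). The remaining ones were Grk5 in AT-II day 4 replicate 3, at 7.00 (7.62 to 7.73), and Mpo in AT-I day 2 replicate 3, at 11.05 (12.08 to 12.24). AT-II day 2, with 3 samples, was outside this check. Its replicate 1 was also high for the 4 genes named in AT-I day 2 replicate 1. Il1a was at 11.42 (others 5.50 and 5.55) and Tnf at 8.69 (6.77 and 7.15). Icam1 was at 9.60 (8.37 and 8.38) and Nfkbiz at 10.28 (7.67 and 7.84). No cause was tested for any of these values.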

How the results depend on the processing

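The number of arrays limits these results, and the causes of the shifts below were not tested. Of the members, 1 passed on AT-I over time; it was 2 with all 16 arrays separate, median centring, quantile normalization, the dimmest 30% of genes left out or only 2 groups in the fit, 3 with 16 arrays separate and the replicate block together, and 0 to 3 when 1 sample was left out. Members passing stayed at 0 elsewhere, except 1 (Cxcr1, 0.73) between surfaces at day 2 with the replicate block. The block fits also counted the averaged pair as 2 arrays, and adjusted p for Cxcr1 was 0.0384 with the block as a random term and 0.0311 as a fixed term, against 0.0729 with 16 arrays separate and no block. Same-numbered arrays did not all vary together (r from -0.339 to 0.642), so these numbers were not taken as pairs. Genes passing between surfaces at day 2 numbered 0, but 2193 with 16 arrays separate, 1 with quantile normalization, 4702 and 3823 when the replicate block was added to those 16 arrays as a random and a fixed term, and 0 to 711 leaving out 1 sample (711 without AT-I day 2 replicate 2). On AT-I over time they were 1983, 1060 with only 2 groups in the fit and 1158 to 2954 leaving out 1 sample (1158 without AT-I day 4 replicate 4). On AT-II they were 575, 334 without both day 2 samples numbered 1 and 223 to 694 leaving out 1 sample (223 when AT-II day 2 replicate 1 was dropped, 294 for the averaged pair, 312 and 354 for AT-II day 4 replicates 1 and 3). Of the genes called over time, the share that was higher at day 4 was 76.9% on AT-I and 93.9% on AT-II. It was 39.7% and 72.2% with median centring, and 65.6% and 88.6% with quantile normalization.

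Member differences changed sign in 42 of their alternative values, none past the threshold. With median centring these were Cxcl6 (0.10) and Cxcr2 (0.08) between surfaces at day 2, Cxcr2 at day 4 (0.07), Cxcr1 over time on AT-II (-0.02) and the Cxcr2 interaction (-0.02). With quantile normalization they were Cxcr2 at day 2 (0.08) and day 4 (0.04), Cxcl3 at day 4 (-0.04), Cxcl6 over time on AT-I (0.05), Cxcr1 over time on AT-II (-0.03) and the Cxcr2 interaction (-0.04). Without both day 2 samples numbered 1 they were Cxcl6 at day 2 (0.08) and Cxcl1 over time on AT-II (0.08). Leaving out 1 sample, the ranges that crossed 0 were, between surfaces at day 2, Cxcl6 -0.19 to 0.08 and Cxcr2 -0.37 to 0.23; at day 4, Cxcl2 -1.46 to 0.02, Cxcl3 -0.38 to 0.48, Cxcr1 -0.01 to 0.37 and Cxcr2 -0.19 to 0.13; over time, Cxcl6 on AT-I -0.15 to 0.05, Cxcl1 on AT-II -1.71 to 0.08 and Cxcr1 on AT-II -0.13 to 0.29; and the Cxcr2 interaction -0.24 to 0.35.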
